A study of Homo sapiens with 8 samples.

Results

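Histone methylation enzymes were followed as mRNAs through a sort of processing bodies (P-bodies) and through a knockdown of EDC4. The 46 members were chosen by gene symbol from 5 families, with earlier results of the same sort and knockdown in view, among the 59414 genes of the count table. All 46 were found. They comprised 18 demethylases, 11 genes of the KMT2 and SETD families, 6 H3K9 methyltransferases, 7 genes of the NSD, ASH1L, DOT1L and KMT5 group and 4 Polycomb genes. The abundance and editing values below, with their calls, therefore describe the members. A call on a member is given as a description, and not as support for the choice of members. The 8 libraries came from HEK293T cells, an established human embryonic kidney line, and all their titles name the same dual editing system, PB-TRIBE-STAMP. TRIBE is known as a method that marks RNA near a protein with an adenosine deaminase (A-to-I editing) and STAMP as one that does so with a cytidine deaminase (C-to-U editing). The 4 groups of 2 libraries were sorted P-bodies (50 ng of input RNA) and cytosol (100 ng), and cells given an siRNA against EDC4 (siEDC4) and cells given the control siRNA (siNC) (500 ng each). The labels number the libraries of each group as batch 1 and batch 2. All groups share the line and the editing system, and no library without it was used here. Fraction and input amount cannot be told apart.

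P-bodies are cytoplasmic granules that hold translationally repressed mRNA together with decapping and repression proteins, and EDC4 is a scaffold of the decapping machinery. Histone methyltransferases place methyl groups on lysines of histones, and demethylases remove them. Marks on H3K4, H3K36 and H3K79 are known from active genes, and marks on H3K9 and H3K27 from silenced chromatin. Most of the methyltransferases act through a SET domain. Most of the demethylases act through a JmjC domain, which holds an iron atom.

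The sort libraries held between 21186963 and 23716926 counted reads, and the knockdown libraries between 5697417 and 6294767 reads over both editing tables. The sorted P-body libraries differed from each other by far more than sampling noise, with a chi-square per degree of freedom of 22.5 over genes, against 3.00 for the cytosol libraries. In reads the siEDC4 libraries had a value of 3.46. The reads of the siNC libraries differed by close to sampling noise alone (1.02 in both tables, where sampling noise gives 1), and they were counted as 1 sample, although their edited reads differed by more (1.30 and 1.31). With the 4 knockdown libraries kept apart, 1 member was called higher and 0 lower in reads, and 0 for either kind of editing, the same counts as with the siNC libraries joined. All 5 markers of HEK293T cells exceeded 1 CPM in every sort library. Of 9 markers of other cells, CD3E and HBB had no read, 4 others stayed under 1 CPM in every sort library, and EPCAM, CDH1 and COL1A1 exceeded it. The summed level of those 9 markers was 22.6 and 20.8 CPM in sorted P-bodies, against 42.1 and 39.9 CPM in cytosol. EDC4 itself had 40.3 and 32.6 CPM in siEDC4 cells, against 110 and 106 CPM in siNC cells, a log2 fold change of -1.56 ± 0.14 (SE; edgeR's quasi-likelihood test, Benjamini-Hochberg adjusted p = 2.6e-25).

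Several members come in closely related pairs that encode the same catalytic residues with different codons. GC3, the share of codons of the longest coding transcript that end in G or C, ranged over the members between 30.8% and 84.0%, with a median of 48.8%, against 59.4% for the 13545 coding genes tested. The catalytic core makes this visible, and 60 coding bases (20 codons) around it are shown for related genes chosen with the sort results known. They begin 5 codons before the iron-binding histidine in the JmjC genes and 5 codons before the asparagine-histidine-serine motif in the SET genes, which contacts the methyl donor. Sequences are from GENCODE v29 transcripts on hg38, in sense orientation. Capitals mark the last base of a codon where it is G or C, and all other bases are in lower case.
KDM6A: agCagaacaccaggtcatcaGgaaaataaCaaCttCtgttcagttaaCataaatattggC
KDM6B: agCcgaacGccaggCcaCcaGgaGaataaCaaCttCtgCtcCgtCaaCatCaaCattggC
KMT2C: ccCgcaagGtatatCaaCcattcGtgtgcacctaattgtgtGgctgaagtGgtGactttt
KMT2D: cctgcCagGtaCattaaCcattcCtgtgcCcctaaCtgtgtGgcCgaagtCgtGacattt
SUV39H2: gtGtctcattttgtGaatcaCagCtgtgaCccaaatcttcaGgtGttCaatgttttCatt
SUV39H1: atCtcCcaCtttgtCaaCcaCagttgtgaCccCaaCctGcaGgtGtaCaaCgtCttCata
KMT2A: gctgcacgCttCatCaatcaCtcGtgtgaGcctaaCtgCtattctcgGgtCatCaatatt
KMT2B: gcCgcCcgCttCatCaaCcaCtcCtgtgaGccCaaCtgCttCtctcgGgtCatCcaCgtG
EZH2: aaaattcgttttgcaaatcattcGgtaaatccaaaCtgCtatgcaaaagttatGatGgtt
EZH1: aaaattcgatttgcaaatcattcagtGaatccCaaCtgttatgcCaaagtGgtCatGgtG
KDM5A: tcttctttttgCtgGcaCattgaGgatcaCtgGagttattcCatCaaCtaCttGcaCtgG
KDM5B: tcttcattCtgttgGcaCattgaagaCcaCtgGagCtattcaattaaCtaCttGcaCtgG
KDM5C: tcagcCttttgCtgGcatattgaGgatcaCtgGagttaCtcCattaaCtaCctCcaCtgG

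In this window KDM6A and KDM6B encode 20 identical residues of 20, with 7 codons ending in G or C in KDM6A (chrX:45083596-45085911, plus strand, exons 24 and 25 of 30) and 16 in KDM6B (chr17:7851784-7851997, plus strand, exons 17 and 18 of 22). KMT2C and KMT2D also share all 20 residues, with 8 such codons in KMT2C (chr7:152138853-152139193, minus strand, exons 57 and 58 of 59) and 11 in KMT2D (chr12:49022100-49022287, minus strand, exons 52 and 53 of 54). SUV39H2 and SUV39H1 share 18 residues, with 9 such codons in SUV39H2 (chr10:14899662-14901168, plus strand, exons 4 and 5 of 6) and 16 in SUV39H1 (chrX:48706388-48706533, plus strand, exons 4 and 5 of 6). KMT2A and KMT2B share 17 residues, with 11 in KMT2A (chr11:118521963-118522022, plus strand, exon 36 of 36) and 18 in KMT2B (chr19:35738348-35738407, plus strand, exon 37 of 37). EZH2 and EZH1 share 19, with 5 in EZH2 (chr7:148809145-148809358, minus strand, exons 18 and 19 of 20) and 8 in EZH1 (chr17:42702951-42703788, minus strand, exons 19 and 20 of 21). These 5 pairs were chosen with the sort results known, and in each the gene with fewer such codons has the higher estimate in the sort, as given below. GC3 over the whole coding sequence did not order every related pair that way, and the pairs given next have no printed window. SETDB1 had a GC3 of 53.2% and a log2 fold change of 0.99, against 33.2% and 0.63 for SETDB2. SETD1B had 76.9% and -0.26, against 71.0% and -0.81 for SETD1A. KDM1B had 49.3% and -0.38, against 46.1% and -0.44 for KDM1A. PHF2 had 74.9% and -0.21, against 60.8% and -0.25 for PHF8. In the printed window the KDM5 genes have nearly the same number of codons ending in G or C: KDM5A (chr12:333649-334299, minus strand, exons 11 and 12 of 28) has 13, KDM5B (chr1:202753067-202755329, minus strand, exons 12 and 13 of 28) has 12 and KDM5C (chrX:53210576-53210734, minus strand, exons 11 and 12 of 26) has 13. KDM5A and KDM5B share 20 residues of 20, and each shares 19 with KDM5C.

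In the sort, 27 of 46 members were called higher and 10 lower in sorted P-bodies than in cytosol, with a median log2 fold change of 0.42. Over all 18745 genes tested, 28.8% were called higher and 29.0% lower, with a median of -0.03. A call is a Benjamini-Hochberg adjusted p under the threshold of 0.05 in edgeR's quasi-likelihood test over all genes. In bulk libraries, fewer P-bodies that hold an mRNA and fewer copies of it per P-body cannot be told apart. The 2 sorted P-body values lay on one side of both cytosol values for all 46 members, as for 80.5% of all genes tested, and each member's ratio had the same sign in batch 1 and in batch 2, as for 86.1% of all genes. An estimate above 2-fold was reached by 14 members upward and by 1 downward. Scaled by library size alone, 22 members were called higher and 16 lower, the median of all genes was -0.23, and KDM2A, KDM2B and NSD2, which were not called, moved to just below 0. Without cytosol 1 or without cytosol 2, 6 members rather than 10 were called lower; 27 of the 37 calls held in every fit that left out 1 library. The spans of 9 members are shared with another gene of at least 10% of their reads: KDM2B with RNF34, JMJD1C with REEP3, KDM5A with CCDC77, KMT2E with SRPK2, SETD5 with THUMPD3-AS1, SETDB1 with CERS2, SUV39H2 with DCLRE1C, NSD3 with DDHD2, and DOT1L with AP3D1 and PLEKHJ1. Strand use in the counting is not given in the sources used here, so the counts and editing of these 9 members are uncertain.

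**Figure D1:**
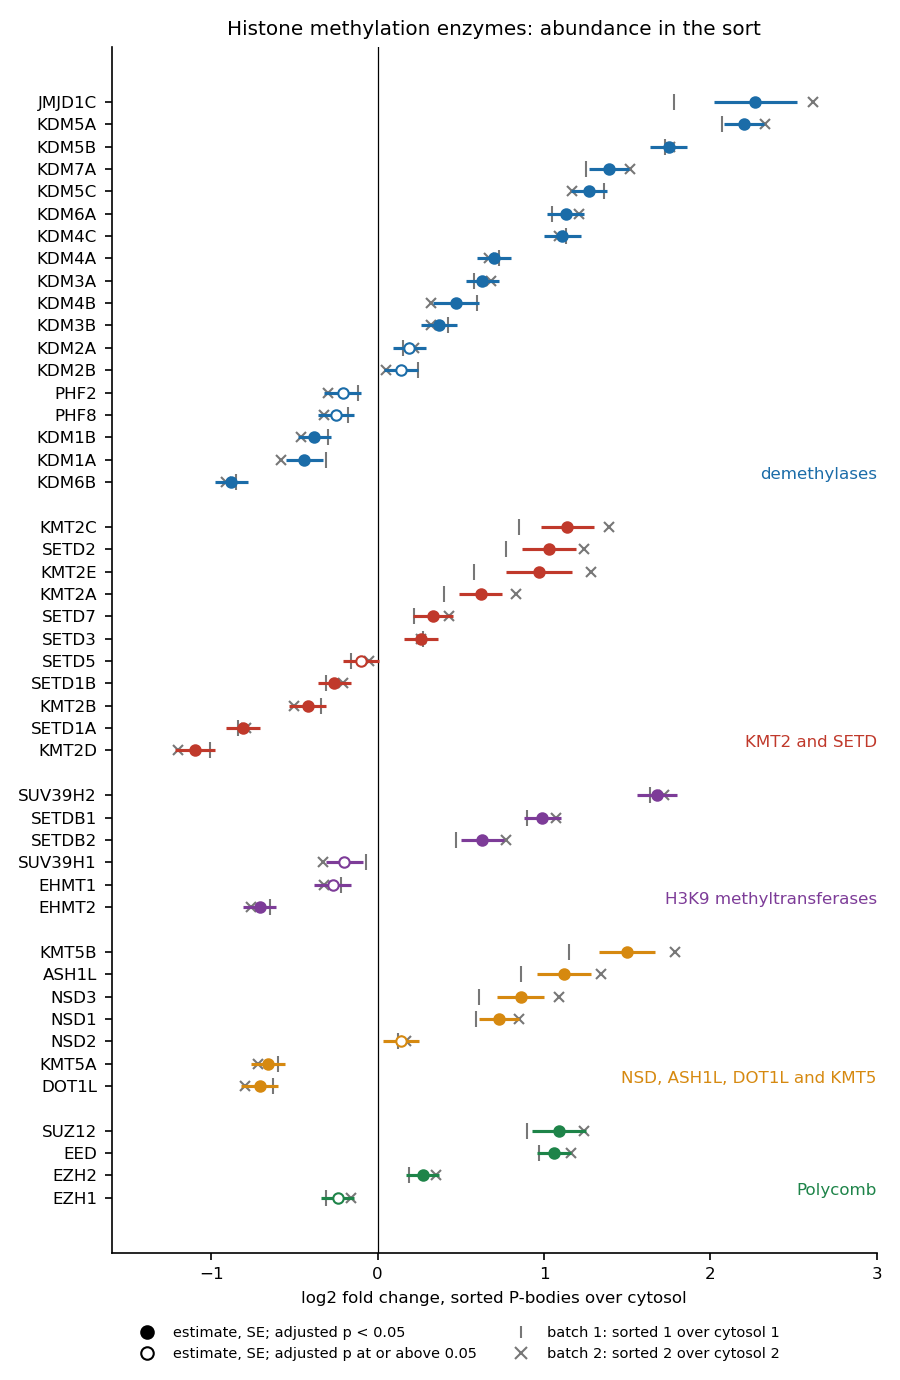
Log2 fold change of each member in sorted P-bodies over cytosol (x axis), by family, with its SE; filled points passed the adjusted p threshold of 0.05 and grey marks give the ratio within batch 1 and within batch 2. JMJD1C and KDM5A lie farthest right at 2.27 and 2.20 and KMT2D farthest left at -1.10, and both batch marks of every member lie on one side of 0.

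Among the 18 demethylases, 11 were called higher and 3 lower, with a median log2 fold change of 0.55. The highest estimate was that of JMJD1C, a member of the KDM3 family, with 182 and 348 CPM in sorted P-bodies, against 53.1 and 56.4 CPM in cytosol. Its sorted P-body libraries were far apart, and both stood well above cytosol (log2 fold change 2.27 ± 0.25, SE). The lowest was that of KDM6B, an H3K27 demethylase, with 20.7 and 19.5 CPM in sorted P-bodies, against 37.3 and 36.8 CPM in cytosol (log2 fold change -0.88 ± 0.10). The other H3K27 demethylase gene, KDM6A, was called higher, with 251 and 287 CPM in sorted P-bodies, against 121 and 124 CPM in cytosol (1.13 ± 0.11).

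The 3 KDM5 genes encode demethylases of H3K4 and were all called higher. KDM5A had 587 and 655 CPM in sorted P-bodies, against 140 and 130 CPM in cytosol, a 4.60-fold difference (log2 fold change 2.20 ± 0.12). KDM5B had 716 and 735 CPM in sorted P-bodies, against 215 and 216 CPM in cytosol (1.75 ± 0.11). KDM5C had 576 and 530 CPM in sorted P-bodies, against 225 and 235 CPM in cytosol (1.27 ± 0.11). In each of the 3 genes the gap between the groups was several times the gap between the libraries of a group. Per kilobase of gene length, KDM5C was the most abundant member in sorted P-bodies, at 63.4 CPM per kb, and KDM5A followed at 51.6. In cytosol KDM1A led at 43.9 CPM per kb, while KDM5C stood at 26.4 and KDM5A at 11.2.

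The other demethylases spread across the range. KDM7A, which acts on H3K9 and H3K27, had a log2 fold change of 1.39 ± 0.12, and KDM4C, KDM4A and KDM4B, which act on H3K9 and H3K36, had 1.11 ± 0.11, 0.70 ± 0.10 and 0.47 ± 0.14. The H3K9 demethylases KDM3A and KDM3B were called higher at 0.63 and 0.37. KDM1A and KDM1B, the flavin-dependent enzymes that have no JmjC domain, were both called lower. KDM1A had 185 and 167 CPM in sorted P-bodies, against 229 and 248 CPM in cytosol (-0.44 ± 0.11). KDM1B had a log2 fold change of -0.38 ± 0.10. Neither call held in every fit that left out 1 library. The same was true of the calls of KDM3B, KDM4B, KMT2A, KMT2B, SETD1B, SETD3, SETD7 and EZH2. KDM2A (0.19), KDM2B (0.14), PHF8 (-0.25) and PHF2 (-0.21) were not called.

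**Figure D2:**
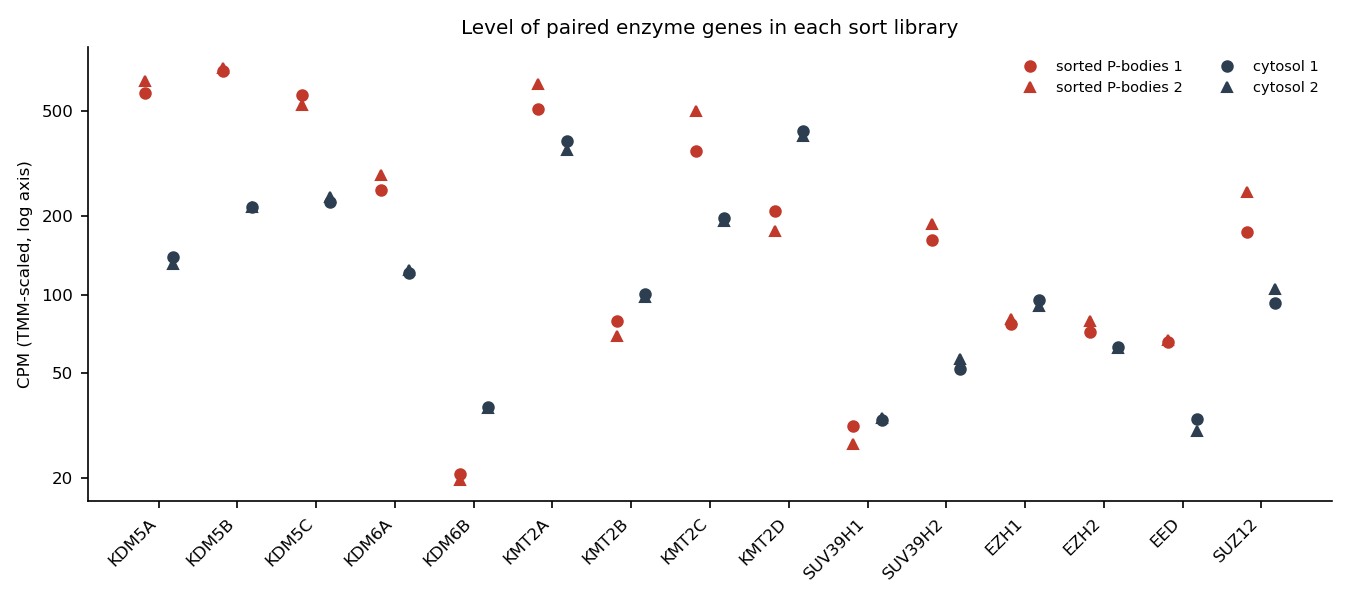
CPM after TMM scaling (log axis) of 15 related enzyme genes in each sort library, sorted P-bodies left of cytosol for each gene, with circles for batch 1 and triangles for batch 2. The KDM5 genes, KDM6A, KMT2A, KMT2C, SUV39H2, EED and SUZ12 stand higher in sorted P-bodies, and KDM6B, KMT2B and KMT2D stand lower.

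Of the 11 KMT2 and SETD genes, 6 were called higher and 4 lower, with a median of 0.26. The KMT2 genes encode very large H3K4 methyltransferases, and they split within both of their pairs. KMT2C had 352 and 501 CPM in sorted P-bodies, against 196 and 191 CPM in cytosol (1.14 ± 0.16). KMT2D had 208 and 176 CPM in sorted P-bodies, against 420 and 404 CPM in cytosol (-1.10 ± 0.12). KMT2C was thus the highest and KMT2D the lowest of the family, although the enzymes work in sister complexes that also contain KDM6A. KMT2A had 512 and 635 CPM in sorted P-bodies, against 387 and 357 CPM in cytosol (0.62 ± 0.13). KMT2B had 79.6 and 69.4 CPM in sorted P-bodies, against 101 and 98.1 CPM in cytosol (-0.42 ± 0.11). KMT2E, a divergent family member, had 78.6 and 133 CPM in sorted P-bodies, against 52.6 and 55.0 CPM in cytosol (0.97 ± 0.20). Its sorted P-body libraries were also far apart, and both lay above cytosol. KMT2C has near-identical partial copies elsewhere in the genome, and how reads with several matches were counted is not given in the sources used here.

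SETD2, which places the third methyl group on H3K36, was called higher at 1.03 ± 0.16. The H3K4 methyltransferases SETD1A and SETD1B were called lower at -0.81 ± 0.10 and -0.26 ± 0.10. SETD3, which methylates actin, was called higher at 0.26 ± 0.10, and SETD5 was not called (-0.10 ± 0.11). SETD7, an H3K4 monomethyltransferase that also acts on other proteins, had 188 and 218 CPM in sorted P-bodies, against 161 and 162 CPM in cytosol (0.33 ± 0.12). The calls of SETD1B, SETD3 and EZH2 were lost in the fit that pairs the batches (replicate block), which left 25 members called higher and 9 lower.

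Among the 6 H3K9 methyltransferases, 3 were called higher, 1 was called lower and 2 were not called. SUV39H2, which methylates H3K9 in heterochromatin, had 162 and 186 CPM in sorted P-bodies, against 51.9 and 56.7 CPM in cytosol (1.68 ± 0.12). Its paralog SUV39H1 had 31.6 and 26.8 CPM in sorted P-bodies, against 33.2 and 33.8 CPM in cytosol and was not called (-0.20 ± 0.11). SETDB1 and SETDB2 were called higher at 0.99 ± 0.11 and 0.63 ± 0.13. EHMT2 and EHMT1 encode the subunits of one H3K9 mono- and dimethyltransferase. EHMT2 had the lowest estimate of the family, with 59.4 and 56.9 CPM in sorted P-bodies, against 93.4 and 96.3 CPM in cytosol (-0.71 ± 0.10). EHMT1 was not called (-0.27 ± 0.11).

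Of the 7 genes of the NSD, ASH1L, DOT1L and KMT5 group, 4 were called higher and 2 lower, with a median of 0.73. KMT5B, which adds further methyl groups to H4K20, had 112 and 167 CPM in sorted P-bodies, against 50.6 and 48.4 CPM in cytosol (1.50 ± 0.17). KMT5A, which places the first methyl group on the same lysine, had a log2 fold change of -0.66 ± 0.10. DOT1L, the H3K79 methyltransferase that has no SET domain, had the lowest estimate, with 89.4 and 76.6 CPM in sorted P-bodies, against 138 and 134 CPM in cytosol (-0.71 ± 0.11). The H3K36 methyltransferases ASH1L, NSD3 and NSD1 were called higher at 1.12, 0.86 and 0.73, while NSD2 was not called (0.14).

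The 4 Polycomb genes encode the PRC2 complex, in which EZH2 or EZH1 methylates H3K27, EED reads the mark and SUZ12 is the scaffold. SUZ12 had 173 and 247 CPM in sorted P-bodies, against 93.0 and 105 CPM in cytosol (1.09 ± 0.16). EED had 66.0 and 67.2 CPM in sorted P-bodies, against 33.6 and 30.2 CPM in cytosol (1.06 ± 0.10). EZH2 had 71.9 and 79.5 CPM in sorted P-bodies, against 62.8 and 62.4 CPM in cytosol (0.27 ± 0.10). EZH1 had 77.1 and 80.7 CPM in sorted P-bodies, against 95.7 and 90.4 CPM in cytosol, and was not called (-0.24 ± 0.10). Of these 4 members, the non-catalytic EED and SUZ12 thus had larger estimates than EZH2 and EZH1. PRC2 partners outside the members went both ways, as with MTF2 at 1.48 and PHF19 at -0.50. The transcribed copy SUZ12P1 had 595 and 557 reads in sorted P-bodies, against 1161 and 1186 reads in cytosol, the opposite direction to SUZ12, so reads shared between them leave the value of SUZ12 uncertain.

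The estimates ran with base composition. Of the 24 members under 50% GC3, 21 were called higher and 2 lower, against 63.7% and 11.8% of the 4769 coding genes tested in that range. Of the 22 members at 50% or more, 6 were called higher and 8 lower, against 16.2% and 45.1% of 8776 coding genes. Across the 46 members, log2 fold change and GC3 had a Pearson r of -0.66 and a Spearman rho of -0.68, against -0.52 and -0.53 across all 13545 coding genes. This is a description across genes, which share the 4 libraries and are not replicates. The r was -0.59 in batch 1 and -0.70 in batch 2. Sorted P-bodies 2 over sorted P-bodies 1 followed GC3 as well (r = -0.78), whereas cytosol 2 over cytosol 1 did so less (r = -0.20), and 20 of the 24 members under 50% GC3, against 6 of the 22 others, were higher in sorted P-bodies 2 than in sorted P-bodies 1. The part of that library difference in the relation was not tested.

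Length had a looser relation. The members' median gene length was 9663 bases, against 4343 bases for all genes tested and 5320 bases for the coding genes among them. The r between log2 fold change and log10 length was 0.19 across members and 0.17 across all genes, noncoding ones included. With log10 length of the coding sequence, r was 0.04 across members and 0.38 across the 13545 coding genes tested. The difference between a member's estimate and the median of the 500 tested genes nearest in length had a median of 0.25, and 0.35 for the 500 nearest in GC content of the transcript. Against the 500 coding genes nearest in length and GC3 together the median difference was 0.00, with 23 of 46 members above 0. Against those genes the KDM5 genes still stood out, with 1.55 for KDM5A, 1.46 for KDM5C and 1.15 for KDM5B, as did JMJD1C at 1.11 and SUV39H2 at 1.01. Below their nearest genes lay KMT2D at -1.23, SETD5 at -0.84, KDM1A at -0.82, KDM6B at -0.62 and KDM1B at -0.61. By family, 13 of 18 demethylases, 2 of 11 KMT2 and SETD genes, 3 of 6 H3K9 methyltransferases, 3 of 7 genes of the NSD group and 2 of 4 Polycomb genes lay above the genes nearest in both.

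**Figure D3:**
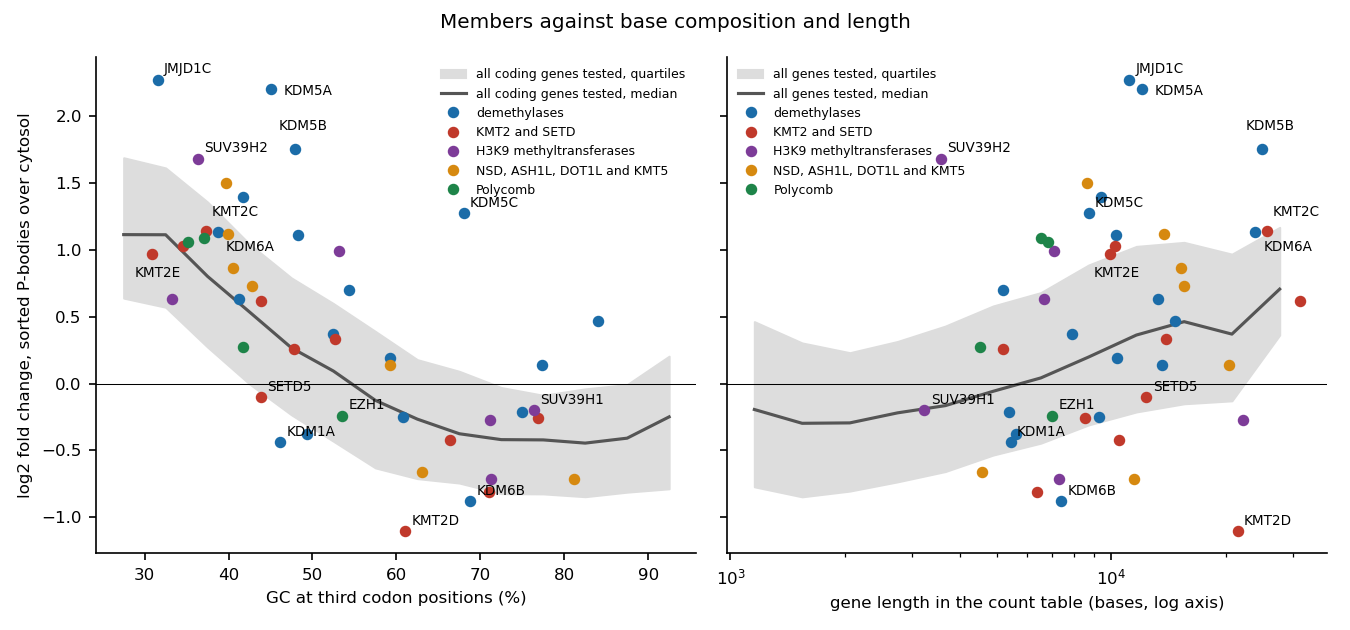
Log2 fold change of each member in sorted P-bodies over cytosol (y axis) against GC3 (left, %) and gene length (right, bases, log axis), coloured by family, over the median and quartiles of all genes tested. Members under 50% GC3 lie mostly above 0 on the left, and KDM5C at 68.0% GC3 and KDM1A at 46.1% lie away from the median line on opposite sides.

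The subunits that work with these enzymes, and related enzymes, formed a further list of 52 genes, of which 51 were tested. There 19 were called higher and 15 lower, with a median of 0.03. The highest called were HCFC2, a relative of the KMT2A complex subunit HCFC1, at 1.94 ± 0.11, the transcriptional corepressor LCOR at 1.82 ± 0.18, and the Polycomb-like PRC2 partner MTF2 at 1.48 ± 0.12. The lowest were DPY30, a core subunit of all KMT2 and SETD1 complexes, at -1.40 ± 0.10, the EHMT partner WIZ at -1.26 ± 0.11, and TRIM28, which recruits SETDB1, at -0.94 ± 0.13. Partners of one enzyme therefore differed: the SETDB1 partner ATF7IP was called higher at 0.82 ± 0.16, opposite to TRIM28. DPY30 had a GC3 of 39.4%, among the low values of the list.

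Both kinds of editing score were higher for the members in sorted P-bodies than in cytosol, as for most genes. With no library lacking the editors, base changes from other sources are not separated in these scores. The editing score is the share of a gene's reads that carry an edited base. For A-to-I editing, all 46 members had a log2 odds ratio above 0, and 43 were called higher and none lower, with a median of 1.45. Over the 11303 genes tested, 73.5% were called higher and 1.08% lower, with a median of 1.46. The median score over all listed genes was 7.19% and 7.41% in sorted P-bodies, against 2.90% and 2.77% in cytosol. When each library was centred on its own median, 10 members were called higher and 9 lower, against 16.1% and 13.1% of all genes.

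EZH1, EED and EZH2 had the 3 largest A-to-I log2 odds ratios of all members. EZH1 had a score of 6.67% and 10.3% in sorted P-bodies, against 0.982% and 0.742% in cytosol, a log2 odds ratio of 3.38 ± 0.30 (SE). EED had 11.3% and 12.6% in sorted P-bodies, against 2.71% and 0.803% in cytosol (2.86 ± 0.33). EZH2 had 9.07% and 7.70% in sorted P-bodies, against 1.51% and 1.84% in cytosol (2.43 ± 0.25). In each of the 3 the sorted P-body libraries lay far above both cytosol libraries. SUZ12 had 11.6% and 12.8% in sorted P-bodies, against 3.47% and 4.34% in cytosol (1.76 ± 0.16). With centred libraries EZH1, EED and EZH2 were called higher, at 1.96, 1.44 and 1.00, and SUZ12 was not (0.33). The abundance of EZH1 was not called in the sort. The order of the 3 changed with the cytosol libraries. Without cytosol 1 EED was highest at 4.02, with EZH1 at 3.6 and EZH2 at 2.29. Without cytosol 2 EZH1 was at 3.2, EZH2 at 2.58 and EED at 2.27. The cytosol values of EZH1, EED and EZH2 rest on 33, 24 and 44 edited reads.

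KDM5C and KDM5B were near the other end, and KDM5A lay nearer the middle. KDM5C had 7.64% and 7.28% in sorted P-bodies, against 6.77% and 5.84% in cytosol, and was not called (0.27 ± 0.12). KDM5B had 5.40% and 6.07% in sorted P-bodies, against 3.33% and 3.80% in cytosol (0.71 ± 0.13). KDM5A had 12.8% and 14.7% in sorted P-bodies, against 6.92% and 6.32% in cytosol (1.17 ± 0.13). With centred libraries KDM5C (-1.16) and KDM5B (-0.72) were called lower and KDM5A (-0.26) was not called. All 3 were already edited more in cytosol than the median gene, and their values rest on at least 321 edited reads per group. The demethylase with the highest odds ratio was KDM6A, with 10.9% and 10.4% in sorted P-bodies, against 2.54% and 2.00% in cytosol (2.36 ± 0.16). KDM6B had 4.64% and 8.06% in sorted P-bodies, against 3.89% and 2.97% in cytosol (0.89 ± 0.38), on 35 edited reads in sorted P-bodies, against 55 in cytosol, and its call was lost without sorted P-bodies 2 or without cytosol 2. KDM4B (0.40 ± 0.27) was not called and was the one member whose groups overlapped, with 4.11% and 7.09% in sorted P-bodies, against 4.38% and 3.72% in cytosol. Groups did not overlap in 87.0% of all genes tested.

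In the KMT2 and SETD group SETD2 had the highest odds ratio, with 11.1% and 11.4% in sorted P-bodies, against 2.83% and 3.41% in cytosol (1.98 ± 0.14). KMT2B had the lowest, with 6.01% and 8.07% in sorted P-bodies, against 4.53% and 4.55% in cytosol (0.64 ± 0.20). Its paralog KMT2A had 13.7% and 14.8% in sorted P-bodies, against 6.23% and 5.67% in cytosol (1.39 ± 0.11). The call of KMT2B was lost without sorted P-bodies 2. KMT2C had 15.3% and 17.0% in sorted P-bodies, against 7.30% and 5.83% in cytosol (1.46 ± 0.13). KMT2D had 7.89% and 9.90% in sorted P-bodies, against 4.25% and 4.61% in cytosol (1.06 ± 0.14). KMT2E had 7.54% and 8.25% in sorted P-bodies, against 3.11% and 3.01% in cytosol (1.45 ± 0.21). Both KMT2 pairs thus had the higher odds ratio in the gene that was higher in abundance. SETD7 had 16.6% and 17.8% in sorted P-bodies, against 6.20% and 6.07% in cytosol (1.66 ± 0.13).

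Among the H3K9 methyltransferases SETDB2 had the highest odds ratio, with 6.97% and 9.03% in sorted P-bodies, against 1.66% and 1.73% in cytosol (2.31 ± 0.38). EHMT2 had the lowest and was not called, with 3.86% and 7.03% in sorted P-bodies, against 3.68% and 3.38% in cytosol (0.60 ± 0.27). The sorted P-body libraries of EHMT2 were far apart, and the lower of them lay just above cytosol. In the NSD group KMT5A had the highest odds ratio, with 7.82% and 9.39% in sorted P-bodies, against 1.88% and 2.01% in cytosol (2.22 ± 0.25). DOT1L had the lowest, with 7.07% and 8.62% in sorted P-bodies, against 3.18% and 3.71% in cytosol (1.23 ± 0.19). NSD3, ASH1L and NSD1 had the highest mean scores of all members in sorted P-bodies. NSD3 had 18.5% and 17.7% in sorted P-bodies, against 5.70% and 5.71% in cytosol (1.86 ± 0.13), and ASH1L, NSD1 and NSD2 had log2 odds ratios of 1.78, 1.85 and 1.87, and these 4 were also called higher with centred libraries.

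**Figure D4:**
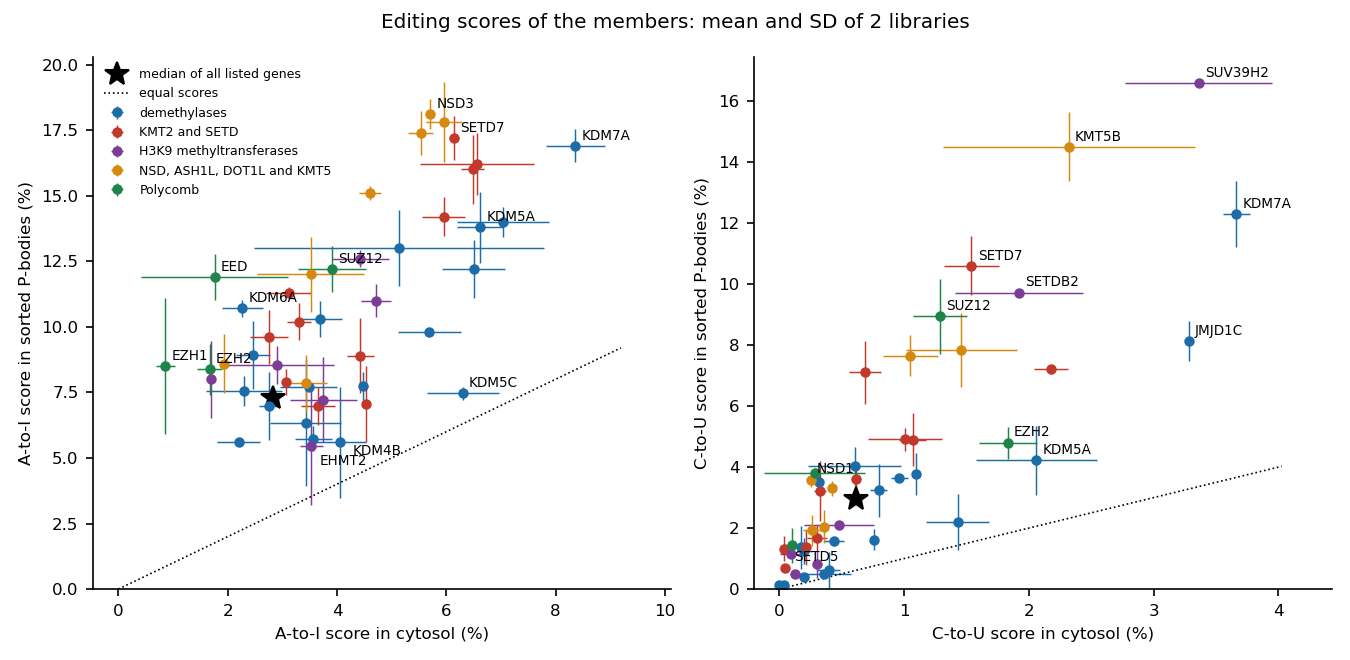
Editing score of each member in sorted P-bodies (y axis, %) against cytosol (x axis, %) for A-to-I (left) and C-to-U (right) editing, as the mean and SD of 2 libraries; the star is the median of all listed genes and the dotted line marks equal scores. EZH1, EED and EZH2 stand at the left of the A-to-I panel and KDM5C lies near the line, while SUV39H2 and KMT5B stand highest in the C-to-U panel.

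For C-to-U editing, 39 members were called higher and none lower, with a median log2 odds ratio of 2.48. Over the 10613 genes tested, 68.0% were called higher and 0.292% lower, with a median of 2.33. Median scores over all listed genes were 2.76% and 3.13% in sorted P-bodies, against 0.633% and 0.595% in cytosol. With centred libraries 3 members were called higher (SETD5, SETD2 and NSD1) and 2 lower (KDM5A and JMJD1C), against 11.3% and 4.56% of all genes.

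SUV39H2 was the member most edited by C-to-U in sorted P-bodies, with 16.6% and 16.6% in sorted P-bodies, against 2.95% and 3.78% in cytosol (2.51 ± 0.25). KMT5B had 13.7% and 15.2% in sorted P-bodies, against 3.04% and 1.61% in cytosol (2.82 ± 0.30). KDM7A had 11.5% and 13.0% in sorted P-bodies, against 3.58% and 3.73% in cytosol (1.88 ± 0.27). SETD7 followed, with 9.92% and 11.3% in sorted P-bodies, against 1.70% and 1.39% in cytosol (2.92 ± 0.26). Both values of SUV39H2 and of KMT5B in sorted P-bodies lay above both values of all the other members. Sorted P-body and cytosol values did not overlap in 43 of 46 members, against 84.0% of all genes tested.

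In the demethylases KDM1A had the largest fitted odds ratio, but it had no edited read in cytosol. Its score was 0.139% and 0.144% in sorted P-bodies, on 7 edited reads of 4965, and among 9260 cytosol reads none was edited. Set against a floor of 3 edited reads over both cytosol libraries, the sorted P-body score was 4.35-fold higher. The 7 reads have sampling error of their own, so this is not a strict lower bound. The call of KDM1A did not hold in every alternative fit. The lowest was KDM4B, with 0.204% and 1.03% in sorted P-bodies, against 0.463% and 0.330% in cytosol (0.37 ± 0.78), where the groups overlapped. KDM5A had 3.43% and 5.01% in sorted P-bodies, against 2.40% and 1.72% in cytosol (1.05 ± 0.32), a call that was lost without sorted P-bodies 1 or without sorted P-bodies 2. KDM5B had 0.320% and 0.442% in sorted P-bodies, against 0.225% and 0.177% in cytosol (0.90 ± 0.47). KDM5C had 0.102% and 0.156% in sorted P-bodies, against 0.0433% and 0.0410% in cytosol (1.50 ± 0.77), on 19 edited reads in sorted P-bodies, against 4 in cytosol. KDM5B and KDM5C were not called, nor were KDM2B, KDM4A, KDM4B, KDM6B and EHMT2.

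SETD5 had the largest odds ratio of the KMT2 and SETD group, with 1.04% and 1.63% in sorted P-bodies, against 0.0379% and 0.0373% in cytosol (5.08 ± 0.52). Its cytosol value rests on 6 edited reads of 15948. KMT2E had the lowest, with 7.31% and 7.11% in sorted P-bodies, against 2.28% and 2.09% in cytosol (1.80 ± 0.28). The other KMT2 genes lay between them. KMT2A had 3.29% and 3.95% in sorted P-bodies, against 0.642% and 0.590% in cytosol (2.59 ± 0.30). KMT2B had 0.962% and 1.78% in sorted P-bodies, against 0.186% and 0.239% in cytosol (2.60 ± 0.58). KMT2C had 5.17% and 4.64% in sorted P-bodies, against 1.22% and 0.803% in cytosol (2.33 ± 0.30), and so was edited more than its paralog in both fractions. KMT2D had 1.39% and 1.98% in sorted P-bodies, against 0.249% and 0.361% in cytosol (2.45 ± 0.38).

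EHMT1 had the largest odds ratio of the H3K9 methyltransferases, with 1.12% and 1.17% in sorted P-bodies, against 0.0324% and 0.161% in cytosol (3.52 ± 0.60). SETDB1 had the lowest, with 0.503% and 1.15% in sorted P-bodies, against 0.319% and 0.287% in cytosol (1.38 ± 0.56), a call that was lost without cytosol 2 or without sorted P-bodies 2. In the NSD group NSD1 had the largest, with 3.41% and 3.77% in sorted P-bodies, against 0.257% and 0.251% in cytosol (3.86 ± 0.33). Both NSD1 pairs were tight, and the groups were far apart. KMT5A had the lowest, with 1.66% and 2.43% in sorted P-bodies, against 0.336% and 0.390% in cytosol (2.46 ± 0.53). EZH1 had 1.02% and 1.83% in sorted P-bodies, against 0.0517% and 0.160% in cytosol (3.67 ± 0.68), on 4 edited reads in cytosol. EED had 3.93% and 3.68% in sorted P-bodies, against 0.572% and 0% in cytosol (3.62 ± 0.65), also on 4, all of them in cytosol 1. These cytosol values set how far the odds ratios of both genes can be read. SUZ12 had 8.06% and 9.82% in sorted P-bodies, against 1.13% and 1.44% in cytosol (2.90 ± 0.29). EZH2 had 5.18% and 4.43% in sorted P-bodies, against 1.67% and 2.00% in cytosol (1.43 ± 0.31).

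The A-to-I log2 odds ratio and the log2 fold change in abundance had an r of 0.08 over 46 members, against 0.11 across 11303 genes tested for both. For C-to-U editing r was -0.31 across members, larger odds ratios going with lower fold changes, against -0.07 across 10613 genes. The 46 members here include KDM1A, which had no C-to-U edited read in cytosol, and r without it was not computed. The odds ratios of the editors had an r of 0.43 across the 45 members with a C-to-U edited read in cytosol. Scores in sorted P-bodies were higher in members of low GC3, with an r of -0.42 for A-to-I and -0.57 for C-to-U editing. In cytosol the A-to-I score and GC3 had an r of -0.07, and the value for C-to-U editing was not computed. These values are descriptions across genes that share libraries, depth and base composition. KDM5A, KDM5B and KDM5C had log2 fold changes in abundance of 2.20, 1.75 and 1.27 beside A-to-I log2 odds ratios of 1.17, 0.71 and 0.27. Their C-to-U log2 odds ratios, 1.05, 0.90 and 1.50, had a different order.

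After the knockdown of EDC4, SETD7 was the one member called in reads. It had 227 and 258 CPM in siEDC4 cells, against 152 and 160 CPM in siNC cells, a log2 fold change of 0.63 ± 0.11. Both siEDC4 libraries lay above both siNC libraries, and groups did not overlap in 22 of the 46 members. SETD7 (chr4:139495941-139606699 on hg38) was already known to differ when the members were chosen. Over the 10642 genes tested, 0.432% were called higher and 0.132% lower. Of the 46 members, 13 had estimates above 0, with a median of -0.07, against -0.00 for all genes. SETD7 kept its call in every alternative fit that gives a test, but these fits reuse the same libraries and are no independent support. Its estimate was 0.59 without siNC 1 and 0.67 without siNC 2, and 0.72 and 0.54 without siEDC4 1 and without siEDC4 2, which were values with no test.

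The other members were not called, and each family is given by its highest and lowest estimate. KDM2B was the highest demethylase, with 100 and 90.2 CPM in siEDC4 cells, against 79.9 and 77.5 CPM in siNC cells (0.27 ± 0.13). KDM6A was the lowest, with 112 and 98.3 CPM in siEDC4 cells, against 132 and 133 CPM in siNC cells (-0.33 ± 0.12). KDM6A and PHF2 (-0.29 ± 0.13) were called lower when the 4 libraries were fitted with a replicate block for batch, in which 303 genes were called higher and 218 lower. KDM5A had 159 and 159 CPM in siEDC4 cells, against 175 and 174 CPM in siNC cells (-0.13 ± 0.11). KDM5B had 214 and 190 CPM in siEDC4 cells, against 207 and 219 CPM in siNC cells (-0.08 ± 0.11). KDM5C had 356 and 348 CPM in siEDC4 cells, against 357 and 357 CPM in siNC cells (-0.02 ± 0.11). The KDM5 genes, with their large differences in the sort, thus stayed close to 0 here.

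KMT2A was the lowest of the KMT2 and SETD group, with 301 and 320 CPM in siEDC4 cells, against 352 and 350 CPM in siNC cells (-0.18 ± 0.11). KMT2B had 132 and 119 CPM in siEDC4 cells, against 141 and 141 CPM in siNC cells (-0.16 ± 0.12). KMT2C had 306 and 287 CPM in siEDC4 cells, against 295 and 314 CPM in siNC cells (-0.03 ± 0.11). These differences were small beside that of SETD7. KMT2D had 489 and 432 CPM in siEDC4 cells, against 504 and 510 CPM in siNC cells (-0.14 ± 0.11). KMT2E had 89.3 and 85.7 CPM in siEDC4 cells, against 99.5 and 95.8 CPM in siNC cells (-0.16 ± 0.13). Among the H3K9 methyltransferases EHMT1 was highest, with 94.4 and 104 CPM in siEDC4 cells, against 103 and 92.5 CPM in siNC cells (0.02 ± 0.13). The pairs of EHMT1 overlapped. SUV39H1 was lowest, with 46.7 and 52.7 CPM in siEDC4 cells, against 58.1 and 65.8 CPM in siNC cells (-0.32 ± 0.15). In the NSD group DOT1L was highest, with 184 and 174 CPM in siEDC4 cells, against 176 and 172 CPM in siNC cells (0.04 ± 0.11). KMT5A, KMT5B and NSD1 were lowest, all at -0.11. Among the Polycomb genes EZH1 had 78.1 and 74.8 CPM in siEDC4 cells, against 76.6 and 70.4 CPM in siNC cells (0.06 ± 0.13). EED had 49.8 and 56.5 CPM in siEDC4 cells, against 57.8 and 55.4 CPM in siNC cells (-0.09 ± 0.15). EZH2 and SUZ12 lay between them, both at -0.08.

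**Figure D5:**
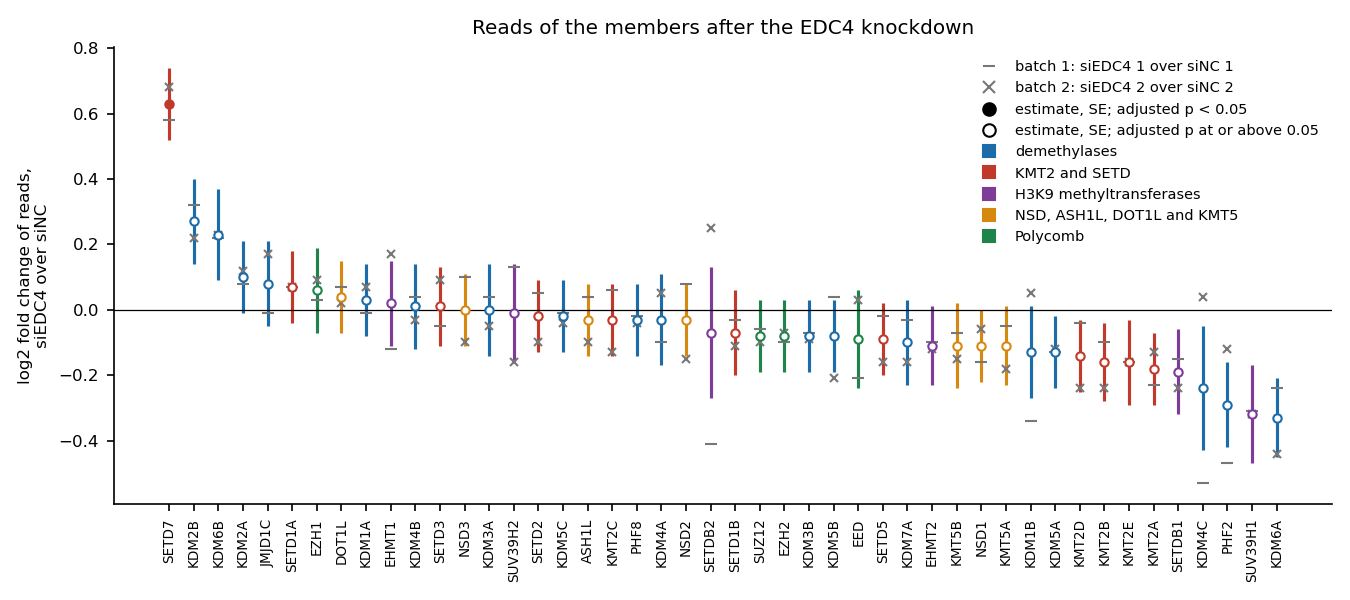
Log2 fold change in reads of each member in siEDC4 over siNC cells (y axis) with its SE, in descending order and coloured by family; the filled point passed the adjusted p threshold of 0.05, and grey marks give the ratio within each batch. SETD7 stands alone at 0.63, and the other members lie between -0.33 and 0.27.

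No member was called for editing after the knockdown, with edgeR's quasi-likelihood test on edited and unedited reads. For A-to-I editing 0.0% of 9157 genes were called. There 491 genes and 2 of the 45 members tested had an unadjusted p under 0.05, and KDM4C, with 1 edited read, was not tested. For C-to-U editing 0.0% of 9646 genes were called, and 377 genes and 1 of the 46 members had an unadjusted p under 0.05. Limma on log2 scores also called no member. With the replicate block, 25 genes were called higher and 1 lower for A-to-I editing, and 3 higher and 1 lower for C-to-U editing, none of them a member. Median A-to-I scores over all listed genes were 1.41% and 1.48% in siEDC4 cells, against 1.17% and 1.16% in siNC cells. Median C-to-U scores, over genes chosen in the same way, were 2.14% and 1.86% in siEDC4 cells, against 1.77% in both siNC libraries. Members had between 105 and 3175 reads per library.

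For A-to-I editing in the knockdown, KDM6A was the highest demethylase, with 2.78% and 1.96% in siEDC4 cells, against 0.970% and 1.18% in siNC cells (1.18 ± 0.48). PHF8 was the lowest, with 2.23% and 1.31% in siEDC4 cells, against 2.68% and 1.78% in siNC cells (-0.34 ± 0.43). The KDM5 genes had log2 odds ratios of -0.01 ± 0.33 for KDM5A, 0.13 ± 0.36 for KDM5B and 0.52 ± 0.52 for KDM5C, and the groups of all 3 overlapped. SETD3 was the highest of the KMT2 and SETD group, with 0.977% and 1.38% in siEDC4 cells, against 0.460% and 0.911% in siNC cells (0.81 ± 0.62). SETD7 was the lowest, with 1.81% and 2.59% in siEDC4 cells, against 2.85% and 4.45% in siNC cells (-0.75 ± 0.35), below both siNC libraries although its reads were called higher. The KMT2 genes lay between -0.08 for KMT2C and 0.58 for KMT2E. SETDB2 had 3 edited reads of 242 in siEDC4 cells and none of 259 in siNC cells, and SETDB1 had the lowest estimate of the H3K9 methyltransferases, at -0.05. NSD3 had 3.88% and 3.56% in siEDC4 cells, against 1.73% and 1.86% in siNC cells (1.08 ± 0.33), the highest of its group, and KMT5A was the lowest at -0.09. EED had 0.990% and 0.621% in siEDC4 cells, against 0.278% and 0.314% in siNC cells (1.37 ± 1.03), on 5 edited reads in siEDC4 cells, against 2 in siNC cells. EZH1 had 0.842% and 0.939% in siEDC4 cells, against 1.68% and 1.73% in siNC cells (-0.94 ± 0.59), below both siNC libraries. Groups did not overlap in 19 of the 46 members, and the share over all genes was not computed.

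For C-to-U editing in the knockdown, KDM2B was the highest demethylase, with 1.97% and 2.53% in siEDC4 cells, against 1.39% and 0.674% in siNC cells (1.08 ± 0.54). KDM4C was the lowest on 2 edited reads in siEDC4 cells, against 5 in siNC cells. The KDM5 genes lay between -0.17 for KDM5A and 0.56 for KDM5B, and the groups of all 3 overlapped. SETD1A had the highest estimate of the KMT2 and SETD group, at 0.42, and SETD1B the lowest, at -0.39. SETD7 had 7.48% and 5.35% in siEDC4 cells, against 6.44% and 5.23% in siNC cells (0.13 ± 0.33), and its groups overlapped. EHMT1 had 1.91% and 3.19% in siEDC4 cells, against 1.41% and 1.70% in siNC cells (0.74 ± 0.49). SUV39H1 had 1.40% and 1.34% in siEDC4 cells, against 1.92% and 2.93% in siNC cells (-0.82 ± 0.61). These bounded the H3K9 methyltransferases. NSD1 had 1.70% and 1.13% in siEDC4 cells, against 0.632% and 0.504% in siNC cells (1.31 ± 0.46). DOT1L had 1.34% and 1.61% in siEDC4 cells, against 2.66% and 2.32% in siNC cells (-0.78 ± 0.39). Both genes had groups that did not overlap, in opposite directions, and neither was called. Groups did not overlap in 19 of the 46 members, and the share over all genes was not computed. All 4 Polycomb genes had estimates above 0, as had 6113 of the 9646 genes tested, whose median was 0.20. With centred libraries 3 of the 4 stayed above 0, and EZH2 was at -0.10. EED had 1.32% and 1.24% in siEDC4 cells, against 0.276% and 0.631% in siNC cells (1.49 ± 0.87), on 8 edited reads in siEDC4 cells, against 3 in siNC cells. EZH2 had the lowest of them, at 0.11 ± 0.62.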

How the data were processed

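Gene counts for the sort and 4 editing tables were analysed for 8 HEK293T libraries, grouped by the labels. The authors deposited whole-number read counts per gene. For each editor and contrast the authors also deposited edited reads and reads per gene, entered as estimated counts because 3 broken lines per table (ANK2, left out) hold values that are not whole, and an editing score, a fraction equal to edited reads over reads and given here as a percentage. Per the submitters' processing notes, the tools were featureCounts (2.0.1), STAR (2.7.9a), cutadapt (1.18) and FastQC (0.11.9), and the build was hg38. The sources used here do not state strand use, the handling of multiple matches or how edited sites were called.

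Counts were tested with edgeR 4.0.16 (R 4.3.3; TMM, filterByExpr, quasi-likelihood test, threshold 0.05), and SE was taken as the absolute log2 estimate divided by √F. Editing was tested with the same tool on edited against unedited reads, for genes edited in at least 2 libraries. DESeq2 1.42.0 and limma 3.58.1 (pseudocounts of 1.2% and 0.234% in the sort, 0.454% and 0.579% in the knockdown, A-to-I first) were alternatives. In the knockdown, siNC 1 and 2 were summed as 1 sample, for reads and for editing. Batch numbers, as labelled, pair the libraries; the differences between numbers had a correlation of 0.094 in the sort and -0.03 in the knockdown, with only 2 pairs each. Separate cultures are not stated for the replicates, so each p-value reflects spread between these libraries alone, which may be technical. Coding sequence and GC3 came from GENCODE v29, and gene lengths from the deposited count table. The scripts were tested on simulated data.

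The members, families, partner list and alternatives were chosen with earlier results of these data known. By the rule for named genes, values per library go to the highest and lowest estimate of each family in each comparison and to SETD7 and the KDM5, KMT2 and Polycomb genes (in knockdown editing some are given by estimate alone), and to the 3 highest and lowest called partners. Other genes named were chosen after their values were seen. GC3, and the genes nearest in length and GC3 together, were added after the data were seen.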

Additional observations from a re-analysis of the deposited data

How the results depend on the processing

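In the sort, scaling by library size alone moved the members called lower in abundance to 16. Leaving out 1 library gave between 21 and 29 members higher and between 6 and 15 lower in abundance, 41 to 45 higher in A-to-I and 35 to 39 higher in C-to-U editing. Centring each library on its median score left 10 members called higher and 9 lower for A-to-I, and 3 higher and 2 lower for C-to-U editing; by construction it removes the general rise. It turned 18 called A-to-I estimates to below 0: KDM1A -0.60, KDM1B -0.03, KDM2A -0.04, KDM3B -0.58, JMJD1C -0.42, KDM4A -0.32, KDM5A -0.26, KDM5B -0.72, KDM6B -0.55, KDM7A -0.27, PHF8 -0.21, KMT2A -0.04, KMT2B -0.79, KMT2D -0.38, SETD1A -0.46, SETDB1 -0.12, EHMT1 -0.46 and DOT1L -0.20. It did the same to 12 C-to-U estimates: KDM2A -0.43, KDM3A -0.25, JMJD1C -0.91, KDM4C -0.45, KDM5A -1.24, KDM6A -0.34, KDM7A -0.41, KMT2E -0.50, SETD1B -0.05, SETDB1 -0.89, SUV39H1 -0.13 and EZH2 -0.85. With the replicate block, the sort gave 25 members higher and 9 lower in abundance, 44 higher for A-to-I (EHMT2 gained) and 39 higher for C-to-U editing. With it the knockdown reads gave 1 member higher and 2 lower (KDM6A and PHF2), and this pairing changed no other call of a member. The cause of these changes was not tested. DESeq2 gave 25 higher and 9 lower in the sort, and no low-count filter gave 24 and 10. Fits of the knockdown without one siEDC4 library give values with no test. Against the 200 nearest genes, the members' median difference was 0.17 by length, 0.33 by GC content, 0.16 by GC3 and 0.04 by length and GC3. With 2 libraries a group, smaller differences than those called cannot be told from library spread.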
